A study of Mus musculus with 2 samples.

Results

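Neutrophils with a high level of Retnlg, the gene of a small secreted protein of the resistin family, were described in single-cell RNA sequencing of ulcerated mouse skin. A barcode was called a neutrophil when S100a8 plus S100a9 made up at least 2% of its unique molecular identifiers (UMIs, which count captured molecules), at least 2 of Csf3r, Cxcr2, G0s2, Hdc and Retnlg had a UMI, and C1qa plus Csf1r had at most 1. Of these, Retnlg-high neutrophils had at least 1% of their UMIs from Retnlg and under 5 UMIs of the interferon-induced genes Ifit1, Ifit2, Ifit3 and Rsad2. The rule found 3977 such cells among 31252 kept barcodes, 3224 in the wild-type library and 753 in the other. Retnlg-low neutrophils, used for comparison, met the same rule with Retnlg under 1%, and there were 6838 of them. A further 224 neutrophils had at least 5 UMIs of the interferon genes. Members were thus chosen by their UMI counts of these genes, so the levels of those genes are a description and not a finding, as is every gene that follows the Retnlg share within a library.

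The series held 2 libraries of lesional skin, each from mice whose skin was tape-stripped 40 to 50 times a day over 15 days as a stand-in for scratching, per the labels. One library was labelled wild type and one was labelled as overexpressing Has2, a hyaluronan synthase, in the whole body. The treatment label begins in mid-sentence, so an earlier step may be missing from it. The labels give neither the promoter that drives Has2, nor the age of the mice, nor how many animals went into a library. The molecule is entered as total RNA for one library, the wild type, and as polyA RNA for the other, and this difference cannot be told apart from genotype. With 1 library per genotype there was no replicate error, so no test or p-value is given. Intervals are at the 95% level and cover the error of counting alone.

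Neutrophils are short-lived phagocytes that mature in the bone marrow, where they fill successive sets of granules with antimicrobial proteins and proteases, and they enter injured skin guided by chemokine receptors such as Cxcr2. Retnlg belongs, in mice, to the genes of mature circulating neutrophils, together with calprotectin, stefins and late granule proteins. After entering tissue, neutrophils can produce chemokines and cytokines such as Ccl3, Cxcl2, Il1b and Tnf, many of which are targets of the transcription factor NF-kB.

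The wild-type library had 16999 barcodes with a median of 4287 UMIs, and the library labelled Has2-transgenic had 14622 with a median of 4320. Their barcodes shared 79 sequences. Retnlg-high neutrophils were shallower in the library labelled Has2-transgenic, with medians of 2288 UMIs and 708 genes against 3309 UMIs and 946 genes in wild type. Has2 itself was scarce in these cells, at 9 UMIs or 0.788 CPM (UMIs per 1000000) in wild type and 10 UMIs or 5.39 CPM in the other library. In Retnlg-low neutrophils its order was the opposite, at 9.78 CPM in wild type and 4.31 CPM in the other library, so these cells do not settle the genotype label.

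Most of the neutrophil marker list could not check the label, because 7 of its 10 genes belong to the rule, and S100a8, S100a9 and Retnlg hold nearly all of the list's sum of 206366 CPM in wild type and 161882 CPM in the other library. The 3 markers outside the rule were detected in both libraries. Il1r2, a decoy receptor for interleukin 1, was at 581 CPM in wild type and 709 CPM in the library labelled Has2-transgenic, against 60.4 and 49.0 CPM in fibroblast barcodes and 111 and 80.6 CPM in macrophage barcodes. Mmp9 and Cxcr4, described further on, were the others, and they did not set these cells apart from macrophage barcodes in both libraries. Mmp9 was at 589 and 312 CPM, against 29.4 and 335 CPM in macrophage barcodes. Cxcr4 was at 130.3 and 258 CPM, against 199 and 249 CPM there. S100a9, a calprotectin subunit that binds calcium and zinc, was at 95009 CPM in wild type and 77095 CPM in the library labelled Has2-transgenic. Csf3r, the G-CSF receptor, was at 695 and 747 CPM, and Cxcr2, a receptor for neutrophil-attracting chemokines, at 901 and 760.0 CPM. Markers of T cells, B cells and keratinocytes were low. The 4 T-cell markers summed to 4.90 and 2.16 CPM, the 4 B-cell markers to 0.0875 and 0 CPM, and the 5 keratinocyte markers to 2.01 and 22.1 CPM. The 8 macrophage markers, of which C1qa and Csf1r are capped by the rule, summed to 323 and 450 CPM, and the 6 fibroblast markers to 98.2 and 139 CPM. Products of the first granules made in the marrow were near 0, since Mpo was at 0.525 and 0 CPM and Elane was at 0 in both libraries. Of the 8 genes of those granules that matched a single row, only Serpinb1a reached 100 UMIs over both libraries. The 5 monocyte markers summed to 408 and 418 CPM. Most of this was Ly6c2, at 365 and 351 CPM, above its 170 and 106 CPM in macrophage barcodes. The 4 endothelial markers summed to 32.0 and 48.0 CPM, the 5 of mast cells and basophils to 2.89 and 3.77 and the 4 of eosinophils to 4.38 and 7.55. Haemoglobin genes summed to 317 and 682 CPM and the 4 platelet markers to 61.4 and 24.8.

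Retnlg-high cells made up a smaller share of neutrophils in the library labelled Has2-transgenic. They were 52.2% of 6181 wild-type neutrophils (exact binomial interval 50.9% to 53.4%) and 15.5% of 4858 neutrophils in the other library (14.5% to 16.5%). The ratio of the shares was 0.297 (0.274 to 0.322). Neutrophils as a whole were 36.7% and 33.7% of kept barcodes, so the gap lay within neutrophils. Over all neutrophils, Retnlg stood at 19403 CPM in wild type and 6270 CPM in the other library. Within Retnlg-high cells the levels were closer, at 31499 and 27906 CPM, as the 1% limit fixes their lower end. When the rule was applied to barcodes thinned to 1000 UMIs the ratio was 0.319, so the gap was about as large at equal depth. With the limit at 0.5% of UMIs it was 0.375, and at 2% it was 0.251.

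**Figure D1:**
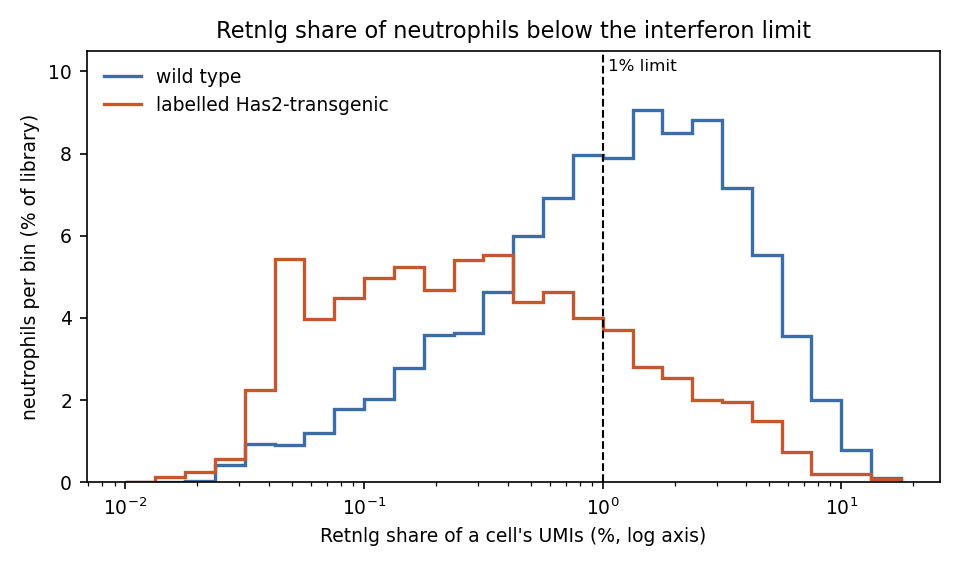
Retnlg share of each neutrophil's UMIs (x axis, percent, log scale) against the percent of that library's neutrophils in each bin (y axis), for neutrophils below the interferon limit, with the dashed line at the 1% limit. Cells with a share under 0.01%, which are 3.73% of wild-type and 28.3% of the other cells, are outside the axis. The wild-type cells form 1 broad hump across the limit, and the cells of the library labelled Has2-transgenic spread over lower shares with no gap at 1%.

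The Retnlg share formed a continuum with no gap at the limit. Among Retnlg-high cells the median share was 2.48% in wild type and 2.09% in the other library, where single cells reached at most 14.7% against 16.8%. The cells just outside the limit, with 0.8% to 1% Retnlg, numbered 358 in wild type and 142 in the other library, and those just inside, up to 1.2%, numbered 295 and 110. On the 2 sides of the limit Mmp8 stood at 260 CPM outside and 286 CPM inside in wild type, and at 149.6 and 156 CPM in the other library. Retnlg UMIs were also found outside neutrophils. After thinning to 1000 UMIs, 83.3% of wild-type and 55.2% of other Retnlg-low neutrophils had a Retnlg UMI, against 3.83% and 1.39% of fibroblast barcodes, whose median depths before thinning were 21989 and 24719 UMIs, and 6.67% and 2.52% of macrophage barcodes, with 9401 and 7730 UMIs. Before thinning these shares were 92.0% and 66.5% in Retnlg-low neutrophils and 12.9% and 5.41% in fibroblast barcodes and 15.4% and 5.88% in macrophage barcodes. Macrophage barcodes had 390 and 62.7 CPM of Retnlg, and single ones reached 10.05% and 5.86% of UMIs.

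Sequences of 3 promoters are shown because Retnlg defines the cells and Mmp8 and Cd177, described next, were higher in Retnlg-high cells of both libraries. Each runs from 250 bases before to 50 bases after the gene's start, from RefSeq on build GRCm38.p6, which is not the build of the count files. Capitals mark matches to TTNNGNAA, a loose form of the C/EBP site, searched on both strands.
Retnlg, chr16:48872358-48872657, plus strand: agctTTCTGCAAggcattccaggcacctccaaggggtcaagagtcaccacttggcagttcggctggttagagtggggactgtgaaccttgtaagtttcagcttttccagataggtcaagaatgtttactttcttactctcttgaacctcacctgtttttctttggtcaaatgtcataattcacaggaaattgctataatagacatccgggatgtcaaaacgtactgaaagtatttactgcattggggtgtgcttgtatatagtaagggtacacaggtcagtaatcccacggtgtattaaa
Mmp8, chr9:7558179-7558478, plus strand: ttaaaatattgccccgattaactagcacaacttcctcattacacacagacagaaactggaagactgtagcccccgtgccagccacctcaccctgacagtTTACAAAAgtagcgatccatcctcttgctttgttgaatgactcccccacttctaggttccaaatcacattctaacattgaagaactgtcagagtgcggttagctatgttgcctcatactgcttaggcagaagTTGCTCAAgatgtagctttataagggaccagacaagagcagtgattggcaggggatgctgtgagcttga
Cd177, chr7:24760262-24760561, minus strand: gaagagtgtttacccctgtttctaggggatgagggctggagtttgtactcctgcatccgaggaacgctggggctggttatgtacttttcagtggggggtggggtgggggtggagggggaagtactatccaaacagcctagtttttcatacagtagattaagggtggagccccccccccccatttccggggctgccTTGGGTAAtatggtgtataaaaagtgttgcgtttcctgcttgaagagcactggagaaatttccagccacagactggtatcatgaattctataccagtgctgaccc
The Retnlg window held 1 match, the Mmp8 window 2 and the Cd177 window 1. The windows of Ccl6 and Dach1, which also followed Retnlg, held none. The same letters occurred in 40.7% of 32851 RefSeq promoter windows of this length, so a match is common and describes only the sequence.

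Within each library, few genes were higher in Retnlg-high than in Retnlg-low neutrophils by 1.5-fold or more, and they were led by Cd177. Of 4901 genes with at least 100 UMIs over both classes in each library, 12 (0.245%) were at least 1.5-fold higher in both libraries and 368 (7.51%) at least 1.5-fold lower in both, with Retnlg and the other genes of the rule not counted. In wild type alone 39 (0.796%) were at least 1.5-fold higher and 813 (16.6%) lower, and in the other library 77 (1.57%) and 792 (16.2%). The median gene had a log2 ratio of -0.18 in wild type and -0.19 in the other library. The other members of the 12, at lower levels, were Ceacam10, Fam169b, Arid3a, Adam19, Mmp25 and Mgll, named after their values were seen. Because Retnlg chose the cells, all of this is a description of what travels with Retnlg.

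Cd177, a surface protein of neutrophils that partners with integrins and sits in specific granules, was at 68.1 CPM in Retnlg-low and 206 CPM in Retnlg-high wild-type cells, a ratio of 3.03. In the library labelled Has2-transgenic the classes stood at 44.6 and 119 CPM and the ratio was 2.67 (2.26 to 3.16). Mmp8, neutrophil collagenase, was at 193 and 469 CPM in wild type and at 94.8 and 169 CPM in the other library. Ly6c2, a GPI-anchored surface protein that is also in the monocyte marker list, was 1.89 times higher in wild type and 2.48 times in the other library. Ccl6, a CC chemokine of myeloid cells, was 1.68 and 2.02 times higher, reaching 5231 and 5788 CPM. Slc24a3, a sodium, potassium and calcium exchanger, was 1.61 and 2.35 times higher, and Dstn, an actin-depolymerising factor, 1.54 and 1.62 times. Dach1, a transcriptional cofactor, was at 458 and 686 CPM in wild type, just under 1.5-fold, and at 304 and 606 CPM in the other library. Wfdc21, a secreted WAP-family protein, the microsomal glutathione transferase Mgst1 and the stefin-like Cstdc5 completed the 10 genes with the largest ratios among those reaching 100 CPM, with ratios of 1.48, 1.55 and 1.44 in wild type and 1.58, 1.47 and 2.19 in the other library.

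Some groups of maturation genes leaned to the same side, while secondary granule genes split. Of 12 measured genes of calprotectin relatives, stefins and small secreted proteins, without those of the rule, 11 were higher in Retnlg-high cells in both libraries, against 11.3% of all genes measured. Stfa2, a stefin that inhibits cysteine proteases, went from 299 to 417 CPM in wild type and from 118 to 301 CPM in the other library. Lcn2, the iron-sequestering lipocalin of specific granules, went from 1852 to 2543 CPM and from 1536 to 2107 CPM. The secondary granule list as a whole split, with 2 of 11 members higher and 2 lower in both. The lower ones were Camp, at 0.91 times in wild type and 0.42 times in the other library, and Ltf, at 0.93 and 0.33 times. In Retnlg-high cells of the library labelled Has2-transgenic they had only 21 and 11 UMIs. Of 11 tertiary granule genes 6 were higher in both, among them Mmp25, a membrane-bound metalloproteinase with ratios of 1.62 and 1.58 whose log2 values went down to 0.50 and 0.37 under alternative settings, while the granule membrane protein Cd63 was lower in both, at 0.55 and 0.61 times. Ngp, a secondary granule protein, was at 159 and 576 CPM in wild type. In the library labelled Has2-transgenic it was lower in Retnlg-high cells, at 118 CPM in Retnlg-low and 85.2 CPM in Retnlg-high ones. There 1 Retnlg-low cell held 78.2% of that class's Ngp UMIs, and without the top cell of each class Ngp was 3.67 times higher in wild type and 2.65 times higher in the other library.

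**Figure D2:**
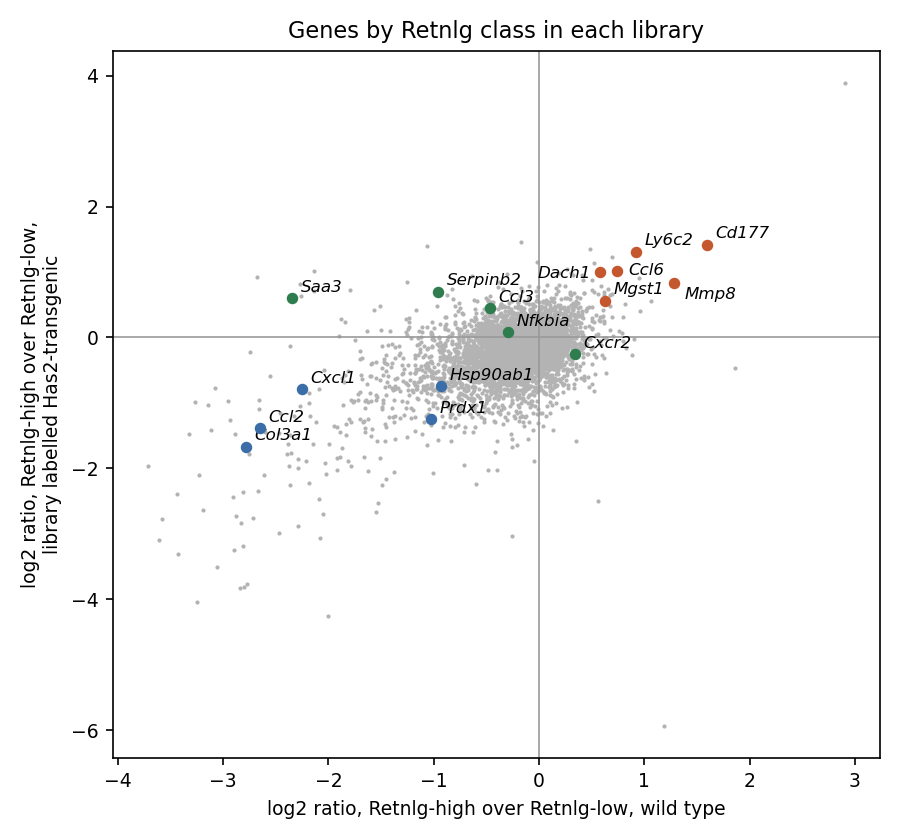
Log2 ratio of CPM in Retnlg-high over Retnlg-low neutrophils in wild type (x axis) and in the library labelled Has2-transgenic (y axis), 1 grey point per measured gene. Orange points are named genes higher in both, blue points named genes lower in both and green points genes that differ between the libraries. Of the green points, Cxcr2 is a gene of the rule. Retnlg, unlabelled at the upper right, lies far from all others because it chose the cells.

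Genes lower in Retnlg-high cells included genes of oxidative defence and the respiratory chain. Prdx1, a peroxiredoxin, was at 149.96 CPM in Retnlg-low and 73.9 CPM in Retnlg-high wild-type cells, and at 185 and 77.6 CPM in the other library. Txnrd1, thioredoxin reductase, was at 334 and 198 CPM and at 614 and 388 CPM. Of 22 genes of glutathione, thioredoxin and iron handling 16 were lower in both libraries, with medians of -0.42 and -0.48, against 57.3% of all genes measured. All 20 measured respiratory chain genes were lower in both, with medians of -0.39 in each library. Hsp90ab1, a chaperone, was at 0.53 and 0.59 times its Retnlg-low level, and 14 of 16 genes that respond to tissue dissociation were lower in both, with medians of -0.51 and -0.19. Of 24 chemokines and cytokines 9 were lower in both libraries and 2 higher, against 57.3% and 11.3% of all genes measured. This list was thus lower in both less often than genes as a whole. Its medians were -0.39 in wild type and 0.19 in the other library. Other genes among the 10 most strongly lower were the actin-binding thymosin Tmsb10 (0.48 and 0.51 times), Ptma (0.42 and 0.54), the amino acid transporter Slc38a1 (0.56 and 0.60) and metallothionein Mt1 (0.28 and 0.40). Several of these sizes were not kept under the alternative settings. The wild-type log2 ratio of Tmsb10 went from -1.07 to as little as -0.24, that of Mt1 from -1.83 to -0.39 and that of Hsp90ab1 from -0.93 to -0.32, and in the other library Tmsb10 reached -0.30 and Hsp90ab1 -0.18.

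The lower group included Col3a1, a fibroblast marker, and UMIs of such markers in Retnlg-low neutrophils lay mostly in a few barcodes. Col3a1, a fibrillar collagen, was at 201 CPM in Retnlg-low and 29.2 CPM in Retnlg-high wild-type cells, and at 165 and 51.7 CPM in the other library. Sparc, a matrix glycoprotein, Ccl2 and Cxcl1 had wild-type ratios of 0.23, 0.16 and 0.21 and ratios of 0.32, 0.38 and 0.58 in the other library. The 6 fibroblast markers summed to 749 and 454 CPM in Retnlg-low neutrophils against 98.2 and 139 CPM in Retnlg-high ones. In Retnlg-low neutrophils 10 cells held 63.6% of these UMIs in wild type and 52.6% in the other library. Cells with a UMI of these markers were 17.8% of Retnlg-high and 19.1% of Retnlg-low neutrophils in wild type. In the other library such cells were 24.3% and 28.8%. Of 4901 measured genes, 368 were at least 1.5-fold lower in both libraries and 12 higher. Without the neutrophils that had a UMI of any of these markers, 106 of 4104 measured genes were lower and 9 higher. With S100a8 plus S100a9 at 5% or more, 55 of 4397 measured genes were lower in both. After thinning to 1000 UMIs, with no fibroblast filter, 55 of 3139 were. The part of fibroblast RNA in these counts and ratios was not tested. Over the alternative settings the log2 ratio of Ccl2 in the library labelled Has2-transgenic went from -1.39 to as little as -0.074 and that of Cxcl1 from -0.79 to -0.046.

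Across 6 bins of Retnlg share, Cd177, Ccl6, Dach1 and Mmp8 ended higher than they began, though not all at every step, and Txnrd1 ended lower. Cd177 in wild type stood at 49.0 CPM below 0.25% Retnlg, 128.6 CPM at 1% to 2% and 318 CPM at 4% or more. In the library labelled Has2-transgenic the same bins had 36.8, 63.8 and 237.5 CPM. Ccl6 went from 2592 to 7620.3 CPM in wild type and from 2610.0 to 9294 CPM in the other library, so its levels were alike in both. Dach1 went from 402 to 943 CPM and from 294 to 833 CPM. Txnrd1 was lower at every step in both libraries, from 388 to 130 CPM in wild type and from 640 to 294 CPM in the other library. Mmp8 went from 142 to 597 CPM in wild type but only from 81.3 to 195 CPM in the other library.

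Some genes followed the Retnlg share in opposite directions in the 2 libraries, and that difference was not tested. Ccl3 went from 3719 CPM in the lowest to 1894 CPM in the highest bin in wild type, and from 4873 to 7013 CPM in the library labelled Has2-transgenic. Icam1 went from 213 to 86.3 CPM in wild type, while in the other library it lay between 214 and 351 CPM with no steady order. Cxcr2 was higher in the top than in the lowest bin of wild type, at 894 against 579 CPM, and lowest in the top bin of the other library, at 587 CPM against 866 CPM. The ratio between libraries therefore depended on the bin. For Ccl3 it was 1.31 in the lowest and 3.70 in the highest bin, for Tnf 1.17 and 3.19, and for Cxcr2 1.497 and 0.66. Cxcr2 is itself a gene of the rule. A cell without a Retnlg UMI needed 2 of the 4 other genes, so the rule bears on Cxcr2 in the lowest bin. Cells under 0.01% Retnlg were 3.73% of wild-type and 28.3% of the other cells. The part of the rule in the Cxcr2 values was not tested.

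**Figure D3:**
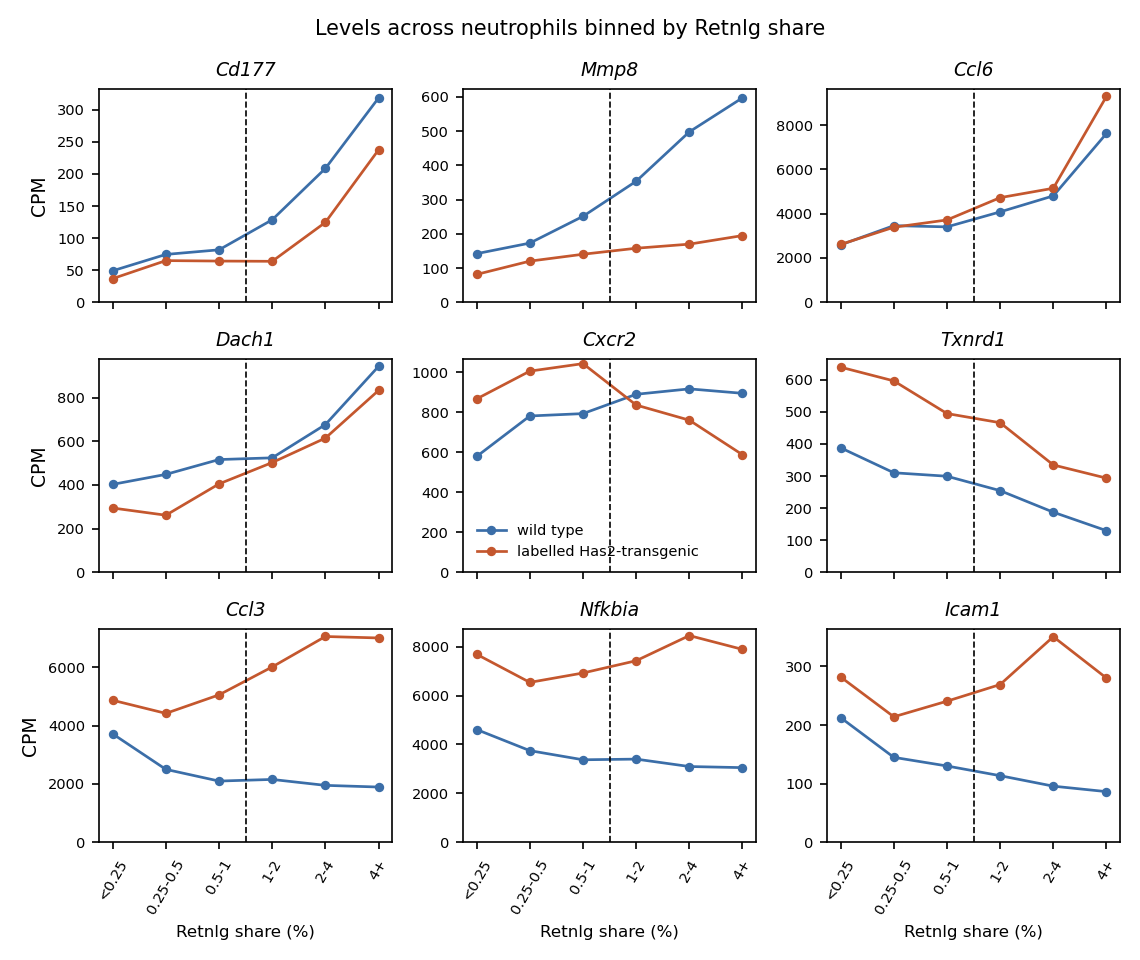
CPM (y axes, from 0) of 9 genes in neutrophils binned by Retnlg share (x axes, percent of UMIs), with blue for wild type, orange for the library labelled Has2-transgenic and the dashed line at the 1% limit. Cd177, Mmp8, Ccl6 and Dach1 climb with the share in both libraries and Txnrd1 declines in both. Ccl3 declines in wild type and is highest at the upper shares in the other library.

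Retnlg-high neutrophils of the 2 libraries were then compared with each other. Chemokine, cytokine and NF-kB genes mostly had higher levels where Has2 was labelled transgenic, while late granule genes, Ly6g and Wfdc17 had lower ones. Of 5101 genes measured, those with 100 or more UMIs in the libraries together, 468 (9.17%) were at least 1.5-fold higher and 994 (19.5%) at least 1.5-fold lower in the library labelled Has2-transgenic. In all 1969 (38.6%) were higher and 3132 (61.4%) lower, and the median log2 ratio was -0.14. This balance depended on scaling, since dividing by the median ratio gave 714 higher and 683 lower. Totals computed without the genes that defined the cells gave 393 and 1194. Cells were also thinned to 1000 UMIs, without the 94 wild-type and 29 other cells that were shallower. Fewer genes were then measured, and of these 2897 genes 266 were higher and 425 lower by at least 1.5-fold. Gene lists below are read against these shares. Many of the shifts named below were not particular to Retnlg-high cells. In Retnlg-low neutrophils the ratio between libraries was 1.90 for Nfkbia, 1.63 for Icam1, 2.12 for Il23a, 0.49 for Mmp8 and 0.31 for Ly6g. Some genes went the other way there, such as Cd74 at 0.62 and Chil3 at 0.71.

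**Figure D4:**
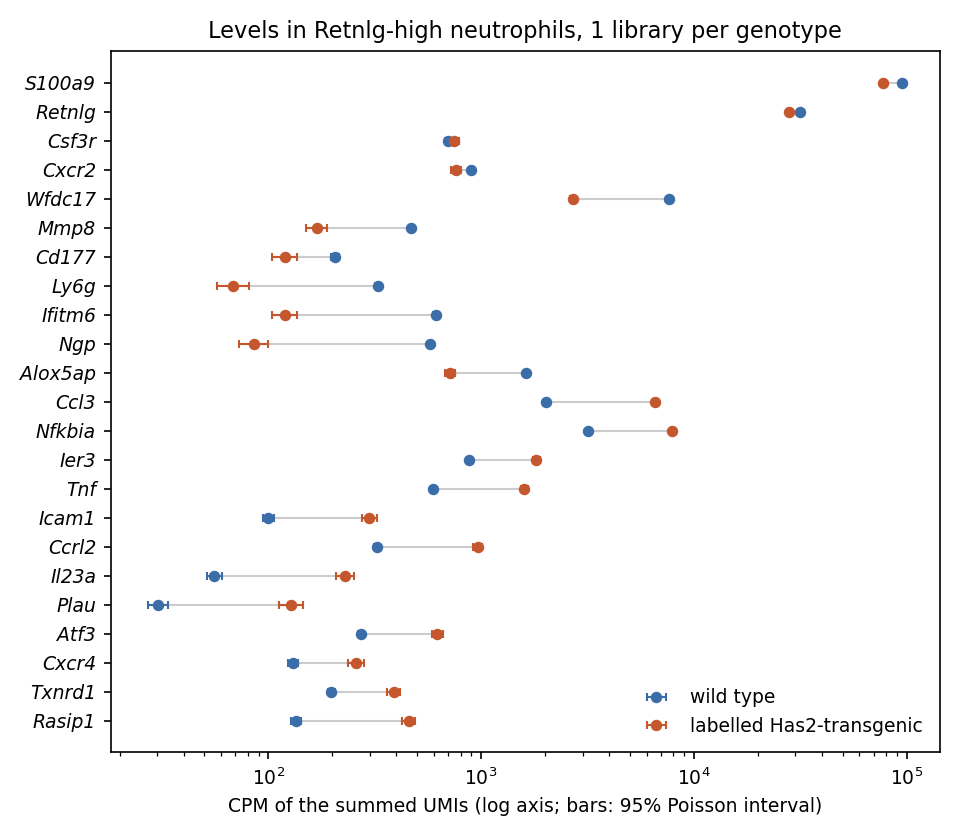
Levels in Retnlg-high neutrophils in CPM of the summed UMIs (x axis, log scale) for named genes (y axis), with wild type in blue and the library labelled Has2-transgenic in orange. Bars are 95% Poisson intervals for counting error of 1 library each. Genes from Wfdc17 to Alox5ap lie lower and genes from Ccl3 to Rasip1 higher in the library labelled Has2-transgenic, while Csf3r nearly coincides.

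Chemokines and cytokines were mostly higher in the library labelled Has2-transgenic. Of 25 measured, 20 were higher, 13 at least 1.5-fold, and 3 at least 1.5-fold lower, with a median log2 ratio of 0.60. Ccl3, which attracts monocytes and neutrophils, was at 2012 CPM in wild type and 6567 CPM in the other library, 3.26 times as high (3.19 to 3.34). In Retnlg-low neutrophils the same ratio was 1.73. Tnf, the inflammatory cytokine that activates NF-kB, was at 595 and 1598 CPM. Il23a, the p19 subunit of interleukin 23, was at 55.8 and 230.2 CPM, and after thinning it had a UMI in 3.04% and 11.6% of cells (6.58% and 16.7% before) against 0.109% and 0.0840% of fibroblast barcodes. Il6 was an exception with 22.1 CPM in wild type and 2.70 CPM in the other library, where it had 5 UMIs. In wild type 1 cell held 32.5% of the Il6 UMIs, and the log2 ratio ranged from -3.76 to -1.88 over the alternative settings.

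Other abundant chemokines and cytokines, named here after their values were seen, lay on the same side. Cxcl2, a ligand of Cxcr2, was at 14266 CPM in wild type and 29272 CPM in the library labelled Has2-transgenic. Il1b was at 4664 and 8260.3 CPM, and after thinning had a UMI in 75.05% and 89.6% of cells (87.8% and 93.2% before), against 3.66% and 4.496% of fibroblast barcodes. Ccl4 was at 5770.1 and 9289.8 CPM, a log2 ratio of 0.69 that went down to 0.47 under alternative settings. In Retnlg-low neutrophils the library ratio of Ccl4 was 0.88, and those of Cxcl2 and Il1b were 1.43 and 1.42.

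Targets and inhibitors of NF-kB shifted nearly all to one side. All but 1 of 21 measured had higher levels in the library labelled Has2-transgenic, 11 by at least 1.5-fold and none lower by that much, with a median of 0.68. Nfkbia, the inhibitor that NF-kB induces and that holds it in the cytoplasm, was at 3197 CPM in wild type and 7861 CPM in the other library. Icam1, the adhesion ligand of leukocyte integrins, was at 99.95 and 299 CPM. Ier3, an early response gene that limits cell death, was at 873 and 1820.2 CPM, and Bcl2a1d, an anti-apoptotic member of the BCL2 family whose reads can be shared with its near-identical copies, at 91.5 and 192 CPM. Nfkb1, a subunit of NF-kB itself, had a log2 ratio of -0.08. Within libraries the list's median between Retnlg-high and Retnlg-low cells was -0.25 in wild type and 0.11 in the other library.

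The promoter of Nfkbia is shown because this gene is the most abundant member of that list among those named. Capitals mark the match to a form of the kB site, GGG followed by any pair of bases and TTTCC, searched on both strands.
Nfkbia, chr12:55492598-55492897, minus strand: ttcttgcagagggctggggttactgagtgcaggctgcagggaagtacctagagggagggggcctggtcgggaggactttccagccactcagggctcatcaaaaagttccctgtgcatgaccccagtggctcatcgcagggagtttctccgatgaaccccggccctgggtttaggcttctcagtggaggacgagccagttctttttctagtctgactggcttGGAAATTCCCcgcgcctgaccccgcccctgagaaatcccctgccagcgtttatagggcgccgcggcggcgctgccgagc
The window held 1 match, and those of Ccl3, Icam1, Tnf and Ccrl2 held none. The letters were found in 1.63% of RefSeq windows.

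Transcription factors and early response genes were higher as well. Of 27 transcription factors 23 were higher, 10 by at least 1.5-fold and 2 lower by as much, with a median of 0.50. Atf3, a stress-induced factor, was at 272 and 621 CPM, Cebpd, a C/EBP factor of acute responses, at 46.6 and 99.2 CPM, and Egr1 at 50.1 and 104 CPM. Fosb was an exception at 24.0 and 11.3 CPM. The list of genes that respond to tissue dissociation, which holds Atf3 and Egr1 too, had 14 of 16 higher, 10 by at least 1.5-fold and 1 lower by as much, with a median of 0.89. Hspa1a, a heat shock protein, was at 7.35 and 21.0 CPM, and 1 cell held 56.4% of its UMIs in the library labelled Has2-transgenic. Its log2 ratio ranged from 0.42 to 2.87 over the alternative settings. The part of tissue handling in the NF-kB and chemokine values was not tested.

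Tertiary granule genes were mostly lower. Of 11 tertiary granule genes 9 were lower in the library labelled Has2-transgenic, 5 by at least 1.5-fold and none higher by as much, with a median of -0.50. Mmp8 was at 469 CPM in wild type and 169 CPM in the other library, 0.36 times (0.32 to 0.40), and after thinning had a UMI in 29.3% and 12.98% of cells (54.0% and 21.0% before), against 0.273% and 0.126% of fibroblast barcodes. Mmp9, gelatinase B, was at 589 and 312 CPM. Anxa1, a protein that damps neutrophil recruitment, was at 235 and 108 CPM, and Arg1, which degrades arginine, at 33.0 and 7.01 CPM with 13 UMIs in the latter and a log2 ratio that ranged from -2.37 to -1.44.

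Secondary granule genes split, with 4 of 9 higher and 5 lower, 1 and 3 of them by at least 1.5-fold, and a median of -0.27 that ranged from -0.41 to 0.23 over the alternative settings. Ngp was at 576 CPM in wild type and 85.2 CPM in the library labelled Has2-transgenic, 0.15 times, and after thinning had a UMI in 19.7% and 3.87% of cells (31.2% and 7.04% before). With the limit at 0.5% Retnlg its log2 ratio was -0.54 in place of -2.75, and 1 cell of that library with 0.5% to 1% Retnlg holds most of the Ngp UMIs below the 1% limit. Olfm4, which marks a subset of neutrophils, was at 79.6 and 20.5 CPM, and Cd177 at 206 and 119 CPM. Chil3, a chitinase-like protein, was at 17.0 and 48.0 CPM, with 31.5% of the latter in 1 cell. Over the alternative settings the log2 ratio of Olfm4 ranged from -2.22 to -1.20 and that of Chil3 from 0.89 to 1.86.

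Several surface and secreted proteins of mature neutrophils were lower too. Ly6g, the surface antigen that identifies mouse neutrophils, was at 326 CPM in wild type and 68.5 CPM in the other library, 0.21 times (0.17 to 0.25), and after thinning had a UMI in 21.0% and 4.97% of cells (41.0% and 10.8% before), against 0.0546% and 0.0420% of fibroblast barcodes. Ifitm6, a membrane protein of the interferon-induced transmembrane family, was at 611 and 119 CPM. Wfdc17, a secreted protein of the WAP family, was at 7649.6 and 2704 CPM, and Wfdc21 at 1784 and 816 CPM. For Wfdc17 the library ratio was 0.36 in Retnlg-low neutrophils too, and between 0.33 and 0.42 in every bin of Retnlg share. Of 15 calprotectin, stefin and small secreted proteins 6 were higher and 9 lower, near the 61.4% lower of all genes measured. By at least 1.5-fold 2 were higher and 4 lower, and the median was -0.20 against -0.14 for all genes. Among them Lyz2, lysozyme, was higher, at 419 and 898 CPM, and Stfa3 was lower, at 85.2 and 32.9 CPM, with 27.9% of the latter in 1 cell. Stefins and the Cstdc genes are near-identical copies, so reads may be split between them. Other genes with the smallest ratios were Tspo, an outer mitochondrial membrane protein (563 and 156 CPM), the kinase Lrrk2 (104 and 31.8 CPM), Plac8 (245 and 86.2 CPM), the mitochondrial fission gene Fis1 (139 and 56.1 CPM) and Nt5e, the enzyme CD73 that makes adenosine (126 and 54.4 CPM).

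**Figure D5:**
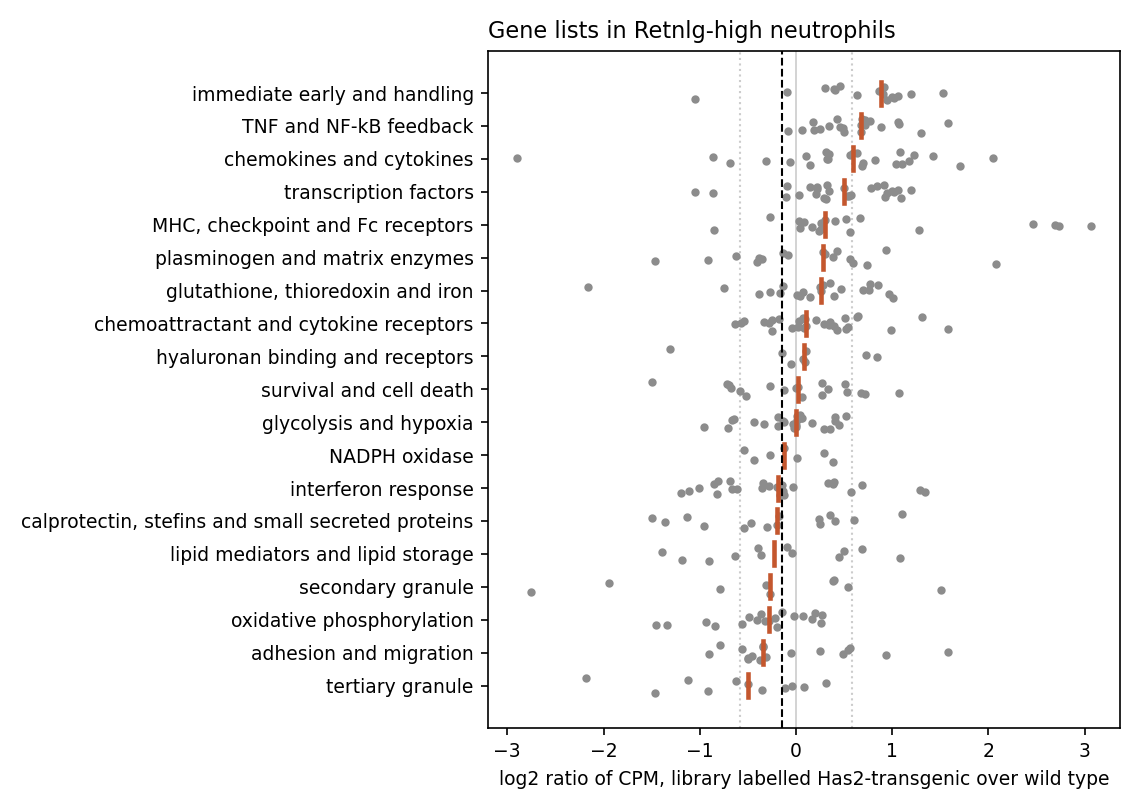
Log2 ratio of CPM in Retnlg-high neutrophils, library labelled Has2-transgenic over wild type (x axis), for the measured members of each gene list (grey points) with the list's median (orange bars). The dashed line is the median of all 5101 measured genes at -0.14 and the dotted lines are 1.5-fold. Lists of early response, NF-kB, chemokine and transcription factor genes lie to the right and tertiary granule genes lie farthest to the left.

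Receptors moved less as a group. Of 29 chemoattractant and cytokine receptors 20 were higher, 5 at least 1.5-fold and 1 at least 1.5-fold lower, with a median of 0.10. Ccrl2, which binds chemerin without signalling, was at 323 and 964 CPM. Cxcr4, the receptor that retains neutrophils in marrow and is often high in aged ones, was at 130.3 and 258 CPM, and its library ratio was 2.38 in Retnlg-low cells. The fungal pattern receptors Clec4n and Clec7a were 2.47 and 1.56 times as high in the library labelled Has2-transgenic. Adhesion genes had 6 of 17 higher, with a median of -0.34, where Itgax was at 48.1 and 92.2 CPM and Itgav at 92.9 and 49.6 CPM. Hyaluronan receptors were close between libraries. Cd44, the main hyaluronan receptor of leukocytes, was at 2655 and 2555 CPM, and Tlr2 and Tlr4 had ratios of 1.07 and 1.053. Of 8 measured genes of that list Hexa, a lysosomal hexosaminidase, and Stab1, a scavenger receptor, were at least 1.5-fold higher, at 38.0 and 62.5 CPM and at 10.9 and 19.4 CPM, though their log2 ratios went down to 0.57 and 0.38 under alternative settings. Vcan, a proteoglycan that binds hyaluronan, was the 1 at least 1.5-fold lower, at 0.38 times, and the median of 0.09 ranged from -0.05 to 0.23 over the alternative settings.

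Oxidative, interferon and metabolic genes gave mixed lists. Of 22 genes of glutathione, thioredoxin and iron handling 16 were higher, 6 at least 1.5-fold, with a median of 0.26. Txnrd1 was at 198 and 388 CPM, Gclc, the rate-limiting enzyme of glutathione synthesis, at 27.7 and 55.5 CPM, and Sqstm1, an autophagy adaptor, at 920.4 and 1665 CPM, whereas metallothionein Mt2 was at 68.6 and 15.1 CPM. Over the alternative settings the log2 ratio of Gclc ranged from 0.72 to 1.66 and that of Mt2 from -2.36 to -1.32. Of 7 NADPH oxidase genes none differed by 1.5-fold, with a median of -0.12 that ranged from -0.20 to 0.02, Rac2 being lowest at 410.3 and 282 CPM and Cybb highest at 63.0 and 81.9 CPM. Of 26 interferon response genes outside the rule 7 were higher and 19 lower, 3 and 9 by at least 1.5-fold, with a median of -0.18. The 26 split, as Irf1 was at 84.5 and 215 CPM and Oasl1 at 24.9 and 60.4 CPM, while Ifitm3 was at 1243 and 542 CPM.

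Respiratory chain genes had 14 of 19 lower and a median of -0.28, led by Ndufa13 at 40.6 and 14.6 CPM and Ndufb8 at 17.1 and 6.47 CPM, where the log2 ratio of Ndufa13 ranged from -2.95 to -0.80. Glycolysis and hypoxia genes had 13 of 26 higher and none by 1.5-fold, 4 lower by that much, with Gpi1 at 0.51, Hk1 at 0.61, the lactate exporter Slc16a3 at 0.63 and Hif1a, the oxygen-regulated factor, at 0.64 times, and the list's median of 0.00 ranged from -0.08 to 0.14. Under some alternative settings Hk1, Slc16a3 and Hif1a were under 1.5-fold lower, with log2 ratios down to -0.504, -0.52 and -0.501. Of 12 lipid mediator and storage genes 4 were higher and 8 lower, with a median of -0.23. In the leukotriene pathway Alox5ap, the protein that presents arachidonate to 5-lipoxygenase, was at 1629 and 717 CPM, and Alox5 itself at 111 and 58.8 CPM. Ptgs2, the inducible cyclooxygenase, was at 102 and 216 CPM. Of 19 survival and cell death genes 11 were higher and 8 lower, 3 and 4 by at least 1.5-fold, with a median of 0.02 that ranged from -0.06 to 0.27. Padi4, the enzyme that citrullinates histones in extracellular traps, was at 67.8 and 23.7 CPM, and Gsdme, a pore-forming gasdermin, at 48.4 and 29.1 CPM, with log2 ratios that went to as little as -0.87 for Padi4 and -0.42 for Gsdme. Of 17 plasminogen and matrix enzymes 9 were higher and 8 lower, with a median of 0.28 that ranged from -0.18 to 0.42. Plau, the urokinase that activates plasminogen, was at 30.4 and 128 CPM, and the cathepsin gene Ctsz at 308 and 590.2 CPM. Rasip1, a Ras-interacting protein, was at 135 and 457 CPM, and after thinning had a UMI in 12.9% and 32.5% of cells (30.3% and 53.3% before) against 0.164% and 0.630% of fibroblast barcodes.

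Among genes with at least 200 UMIs and 100 CPM, the 4 highest ratios relative to wild type rested in large part on 1 cell. Of 19 genes of MHC, checkpoint ligands and Fc receptors 17 were higher, 6 by at least 1.5-fold and 1 lower by as much, with a median of 0.30. H2-Ab1, H2-Aa, H2-Eb1 and Cd74, which encode MHC class II chains and their chaperone, had ratios of 8.38, 6.66, 6.47 and 5.50, and a single barcode held 70.1%, 56.6%, 61.4% and 61.3% of their UMIs in the library labelled Has2-transgenic. Without the top cell of each library the ratios were 2.64, 3.002, 2.71 and 2.19. H2-Aa had a UMI in 2.24% and 3.59% of thinned Retnlg-high cells (4.84% and 6.24% before) against 0.492% and 0.798% of fibroblast barcodes. The 6 dendritic cell markers, 2 of which are H2-Aa and H2-Ab1, summed to 41.3 CPM in wild type and 293 CPM in the other library, where Xcr1, Ccr7 and Cd209a were at 0. The part of dendritic cell RNA in these ratios was not tested.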

How the data were processed

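The deposited values are UMI counts of genes in barcodes. The authors ran Cell Ranger 9.0.1 with GRCm39 on 10x 5' libraries, per the submitters' processing notes and the labels' protocols. The members, gene lists and alternatives were chosen with earlier results of these data known. Kept barcodes had 200 genes or more and no more than 15% of UMIs from mitochondrial genes. Within each library the UMIs of a class were added up and expressed per 1000000 (CPM). Ratios have exact conditional 95% intervals and shares exact Clopper-Pearson ones, for counting error only, and log2 ratios had 0.5 counts added. A gene was measured with 100 UMIs, and 1.5-fold was the size reported. Genes were named by rule: the rule's own genes, up to 4 of each list with the largest ratios, and the 10 largest ratios in each direction among genes with 200 UMIs and 100 CPM. Others are said to be chosen after seeing values, as are Nfkb1, Cd44, Tlr2, Tlr4, Mpo and Elane. Doublets were not removed, so some may remain. Scrublet on its own marked 1.37% of wild-type barcodes and 0% of the others, where 6.80% and 5.85% were expected. An alternative removed the highest scores. Scripts (Python 3.11.15, numpy 2.4.6, scipy 1.17.1, pandas 2.3.3, scanpy 1.11.5) were tested on simulated data.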

Additional observations from a re-analysis of the deposited data

Results flagged for a closer look

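Several genes differed in direction between classes or libraries, and none of these differences was tested. Serpinb2, an inhibitor of plasminogen activators, had a log2 ratio of Retnlg-high over Retnlg-low cells of -0.96 in wild type and 0.70 in the library labelled Has2-transgenic. Between libraries its log2 ratio was 0.59 in Retnlg-high and -1.06 in Retnlg-low cells. Under alternative settings its wild-type value between classes went to as little as -0.24, and its value between libraries in Retnlg-high cells to 0.25. Saa3, an acute-phase protein, had -2.34 in wild type and 0.60 in the other library between classes, and 1.35 in Retnlg-high and -1.60 in Retnlg-low cells between libraries. Its values between classes went to as little as -0.36 in wild type and 0.14 in the other library, its value between libraries in Retnlg-high cells to 0.42, and 1 wild-type Retnlg-low cell held 24.0% of that class's Saa3 UMIs. H2-Aa had -2.26 and 0.63 between classes, H2-Eb1 -2.27 and 0.82, and Cd74 -2.14 and 1.01. Cd74 between libraries had 2.46 in Retnlg-high and -0.69 in Retnlg-low cells. For H2-Aa, H2-Eb1 and Cd74, 1 barcode held 56.6%, 61.4% and 61.3% of the UMIs in Retnlg-high cells of the library labelled Has2-transgenic.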

How the results depend on the processing

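No paired analysis was possible because each genotype had 1 library, and for the same reason no replicate could be left out. Of 19 settings, 15 were planned and 4 were added after seeing the data: 2 of 4 neutrophil genes without Retnlg, the rule on thinned cells, neutrophils without fibroblast UMIs, and each gene without its top cell. The share ratio of 0.297 became 0.375 with the Retnlg limit at 0.5% and 0.251 at 2%. The number of measured genes also moved with the setting, so the counts below are not shares. Between libraries 5101 genes were measured, but 2897 after thinning, 8699 with a minimum of 20 UMIs and 2361 with 500. The 468 genes at least 1.5-fold higher in the library labelled Has2-transgenic became 266 after thinning and 714 after dividing by the median ratio. They became 1187 with a minimum of 20 UMIs and 186 with 500. The 994 lower became 425 after thinning, 2071 with 20 UMIs, 331 with 500 and 571 with 5 counts added. Between the classes 4901 genes were measured, but 4397 with S100a8 plus S100a9 at 5%, 4714 with the highest Scrublet scores removed and 3139 after thinning. There were 8787 with 20 UMIs, 2117 with 500 and 4104 without fibroblast UMIs. The 12 genes higher in Retnlg-high than in Retnlg-low cells became 22 without the rule's genes in the totals. They became 35 after dividing by the median ratio, 34 with 20 UMIs and 6 with 500. The 368 lower became 55 with S100a8 plus S100a9 at 5%, 211 with the highest Scrublet scores removed, 55 after thinning, 170 by the mean of per-cell CPM, 211 after dividing by the median ratio, 1332 with 20 UMIs, 96 with 500 and 106 without fibroblast UMIs.

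Between Retnlg-high and Retnlg-low cells of the library labelled Has2-transgenic, H2-Aa changed from a log2 ratio of 0.63 to -0.15 with S100a8 plus S100a9 at 5%, -0.28 after thinning, -0.22 by per-cell means and -0.37 without its top cell. H2-Eb1 changed from 0.82 to -0.14, -0.068, -0.22 and -0.37 under those settings, and Cd74 from 1.01 to -0.055 without its top cell. Of 2500 values of named genes past 1.5-fold, these 9 changed sign. The median log2 ratio of NF-kB genes between libraries ranged from 0.52 to 0.82, of chemokines and cytokines from 0.35 to 0.75, and of tertiary granule genes from -0.58 to -0.36. The 753 cells of the library labelled Has2-transgenic limit the precision of scarce genes.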
